A study of Homo sapiens with 91 samples.

Results

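The genes described here are 46 components of the DNA replication machinery and targets of the E2F transcription factors, picked by name and read at every line, compound and time of the study. All 46 were found among the 62710 genes of each deposited count table. They fall into 7 roles: origin licensing (5 genes), the replicative helicase and its activators (12), the sliding clamp and its loader (6), polymerases and primase (9), lagging strand and single-stranded DNA proteins (5), nucleotide supply (4) and G1/S regulators (5). The study measured RNA from 91 libraries in 23 groups of 3 established human cell lines: MOLT4 (acute lymphoblastic leukemia), PSN1 (pancreatic adenocarcinoma) and RH4 (rhabdomyosarcoma, written RH1 in the series' design text). Cells were kept in RPMI with serum, and for each sample 1000 cells were seeded and given the CDK9 degrader KI-CDK9d-32, the CDK9 inhibitor KB-0742 or the vehicle DMSO. MOLT4 was sampled at 2, 4 and 8 h with each treatment, PSN1 at the same times but without KB-0742 at 2 h, and RH4 at 4 and 8 h. Each group held 4 libraries except MOLT4 with DMSO at 4 h, which held 3. The labels give no dose, so a difference between the compounds is one between the treatments as given, and each line stands for its tumour type by itself.

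CDK9 is the kinase of the positive elongation factor P-TEFb, which releases paused RNA polymerase II into productive transcription, so loss of its activity lowers short-lived transcripts first. The replication genes are switched on together before S phase, when cyclin E with its kinase inactivates the retinoblastoma protein and frees E2F. In order of use, the origin recognition complex with CDC6 and CDT1 loads the MCM helicase, CDC45 and GINS activate it, the polymerases copy the strands, and PCNA, placed on DNA by replication factor C, tethers them.

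Promoter sequence was looked at because the members are named as E2F targets while they differed in response. RefSeq promoter windows of GRCh38.p14, from 250 bases before to 50 after the start site, were matched for 39 of the 46 members. The letters searched for E2F were TTTCCCGC and TTTCGCGC as well as TTTGCCGC and TTTGGCGC. Read on both strands, at least 1 of them was present in 20 of 39 (51.3%), against 3.33% of 27305 windows of the same length. CCAAT, the letters of NF-Y, was present in 22 (56.4% against 35.7%), GGGCGG, those of Sp1, in 28 (71.8% against 44.6%), and TTTGAA, a cell cycle homology region, in 2 (5.13% against 15.4%). The 6 windows below are the 120 bases that end at the start site of members on which the results turn, written 5′ to 3′ on the gene's strand. They stand for RFC4, the member with the deepest fall after KB-0742 at 8 h in RH4, for POLA2, PCNA, ORC6 and CDC45, which fell with KB-0742 at 8 h in all 3 lines, and for POLD2, which rose relative to other genes. Capitals mark E2F letters or CCAAT. On the other strand the latter reads ATTGG.
RFC4: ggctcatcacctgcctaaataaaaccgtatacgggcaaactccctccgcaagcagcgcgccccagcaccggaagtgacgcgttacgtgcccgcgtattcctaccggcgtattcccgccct
POLA2: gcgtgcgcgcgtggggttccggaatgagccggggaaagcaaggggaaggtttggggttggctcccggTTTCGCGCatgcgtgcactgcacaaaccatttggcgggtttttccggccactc
PCNA: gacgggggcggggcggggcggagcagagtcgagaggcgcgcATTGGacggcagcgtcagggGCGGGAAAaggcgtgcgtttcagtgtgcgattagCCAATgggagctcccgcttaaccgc
ORC6: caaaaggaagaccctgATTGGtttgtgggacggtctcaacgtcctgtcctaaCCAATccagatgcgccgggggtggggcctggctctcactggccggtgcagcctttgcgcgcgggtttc
CDC45: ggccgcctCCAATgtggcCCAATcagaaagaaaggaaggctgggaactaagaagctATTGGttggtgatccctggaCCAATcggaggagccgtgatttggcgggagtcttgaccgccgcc
POLD2: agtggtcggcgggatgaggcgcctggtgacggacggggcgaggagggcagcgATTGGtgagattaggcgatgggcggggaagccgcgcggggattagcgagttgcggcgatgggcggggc
They lie at chr3:186806483-186806602 (RFC4, minus strand), chr11:65261842-65261961 (POLA2, plus), chr20:5126623-5126742 (PCNA, minus), chr16:46689539-46689658 (ORC6, plus), chr22:19479800-19479919 (CDC45, plus) and chr7:44123549-44123668 (POLD2, minus). Of the letters marked, members that fell carried those of E2F in this stretch (POLA2, PCNA), only CCAAT or its complement (ORC6, CDC45) or neither (RFC4). POLD2 carried 1 ATTGG. Only exact matches to the letters searched are marked, so a window without them may hold other forms of these sites.

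Gene counts per library ran from 1598283 to 3240753, of which the members took 0.134% to 0.754%, and each line's markers were the highest marker list in all of its libraries. The same amount of spike-in RNA had been added to each lysate. At 8 h its share of counts averaged 14.5% in MOLT4 libraries with DMSO, 39.9% after KI-CDK9d-32 and 21.5% after KB-0742. After KI-CDK9d-32, replicate 3 held 61.5% and the other libraries of that group 28.2% to 37.1%. Spike-in values were not refitted without it. The same averages for PSN1 were 12.6%, 17.3% and 17.1%, and for RH4 they were 9.71%, 12.9% and 15.1%. The 2-sided exact permutation p against DMSO was 0.0286 in MOLT4 and PSN1 and 0.0571 in RH4, or 0.107 and 0.143 after adjustment over the 15 comparisons. The spike-in share also followed the replicate number: in RH4 replicate 1 had the highest share in 6 of 6 groups and replicate 3 the lowest in 6 of 6. Set against the DMSO library of the same number, the share was higher with the compound in 24 of 24 pairs at 8 h (exact permutation p = 0.125 in each comparison, the smallest 4 pairs allow). Spike-in counts of members are therefore given also with the replicate number as a block where that moves them by over 1.5 times. A larger spike-in share means less cellular RNA in the lysate only where each lysate held the same spike-in, which was not tested. In RH4 with DMSO at 8 h alone, the share ran from 7.71% to 12.6%. In such bulk samples fewer cells and less RNA per cell also cannot be told apart. Values are therefore given on 2 scales: relative to the other genes of the library (TMM scaling, used for the tests) and relative to the spike-ins. On the spike-in scale the median gene tested at 8 h lay at a log2 fold change from DMSO of -2.99 after KI-CDK9d-32 in MOLT4, -1.01 in PSN1 and -0.92 in RH4. After KB-0742 it lay at -1.41, -0.94 and -1.66 in the same order. Replicates carry numbers and no record of the culture each came from, and every p-value therefore covers the variation among libraries, which may be technical.

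**Figure D1:**
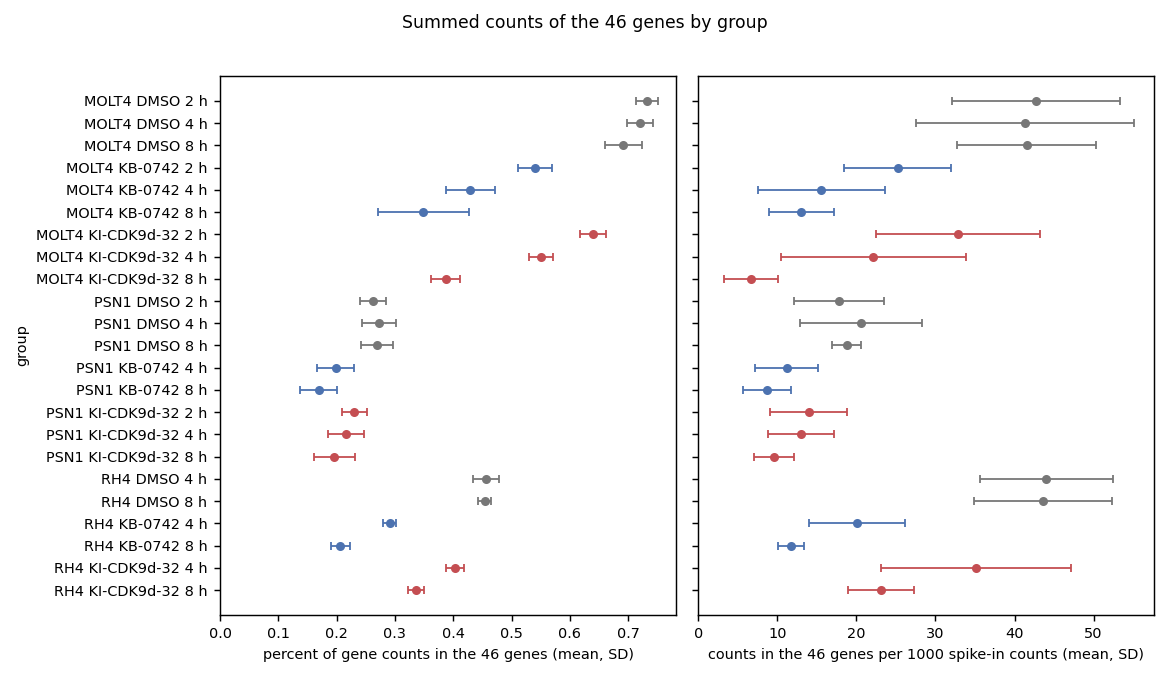
Summed counts of the 46 genes in each group, as a percentage of all gene counts and per 1000 spike-in counts. Points are group means and bars the SD among the libraries of the group. At 8 h in MOLT4 the mean share was 0.692% with DMSO, 0.387% after KI-CDK9d-32 and 0.349% after KB-0742.

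In DMSO at 8 h the clamp PCNA was the most abundant member in MOLT4 (331 ± 13.8 TPM, a unit that scales each gene by its transcript length and each library to the same total; SD, n = 4) and in PSN1 (195 ± 17.4). In RH4 the thymidylate synthase TYMS led (290 ± 29.3 TPM), and in MOLT4 it had 258 ± 38.1. MCM7, a helicase subunit, was the next in MOLT4 at 283 ± 35.5 TPM. The lowest members were regulators: CCNE1 at 1.67 ± 0.66 TPM in MOLT4, E2F3 at 1.499 ± 0.52 in RH4, and E2F2 at 0.254 ± 0.091 in PSN1, where it did not pass the filter on low counts. So 46, 45 and 46 members were tested in MOLT4, PSN1 and RH4.

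Together the members had a lower mean share of the library with both compounds than with DMSO in each line at 8 h. In MOLT4 they made up 0.692% ± 0.032 of gene counts with DMSO, 0.387% ± 0.024 after KI-CDK9d-32 and 0.349% ± 0.078 after KB-0742 (SD, n = 4). The shares in PSN1 were 0.269% ± 0.027, 0.196% ± 0.035 and 0.169% ± 0.032. Those in RH4 were 0.454% ± 0.011, 0.336% ± 0.014 and 0.206% ± 0.016. Per 1000 spike-in counts, MOLT4 libraries held 41.5, 6.72 and 13.1 member counts with DMSO, KI-CDK9d-32 and KB-0742, PSN1 libraries 18.8, 9.63 and 8.67, and RH4 libraries 43.6, 23.1 and 11.7. The lower mean per spike-in count was that of the degrader in MOLT4 and of the inhibitor in PSN1 and RH4, and in PSN1 the means of the compounds lay within 1 SD of each other.

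Gene by gene, the list split. In MOLT4 at 8 h, KI-CDK9d-32 lowered 19 of 46 members and raised 17, where 28.7% and 20.8% of all genes tested were called lower and higher. With spike-in scaling, 45 were lower and 0 higher, and of all 11664 genes tested 10609 were lower and 100 higher. KB-0742 lowered 24 and raised 7 (25.8% and 23.4% of all genes), or 37 and 0 with spike-in scaling. On that scale 6332 of all genes were lower and 71 higher. The members' median log2 fold change was -0.21 with KI-CDK9d-32 against -0.18 over all genes, and -0.39 against -0.10 with KB-0742.

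In PSN1 at 8 h, KI-CDK9d-32 lowered 7 of 45 and raised 1 (9.61% and 11% of all genes; 26 and 0 with spike-in scaling, or 41 and 0 with the block as well), with a median of -0.20 against -0.05. KB-0742 lowered 19 and raised 3 (15.1% in each direction; 29 and 0 with spike-in scaling), with a median of -0.25 against -0.05. With spike-in scaling, of all 12471 genes 6382 were lower and 139 higher with KI-CDK9d-32, and 5834 and 150 with KB-0742. With the replicate block alone KI-CDK9d-32 raised 2. Without DMSO replicate 1 KI-CDK9d-32 lowered 4 members and raised 2, without KI-CDK9d-32 replicate 1 it also raised 2, and without DMSO replicate 2 or KB-0742 replicate 4 KB-0742 raised 5.

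In RH4 at 8 h, KI-CDK9d-32 lowered 5 of 46 and raised 3 (6.05% and 9.19% of all genes; 37 and 0 with spike-in scaling), with a median of -0.16 against -0.04. The count of lower members was 10 with the replicate number as a block, and 3 without DMSO replicate 3, KI-CDK9d-32 replicate 2 or KI-CDK9d-32 replicate 3. KB-0742 lowered 25 and raised 11 (22.9% and 22.5%; 42 and 0 with spike-in scaling), with a median of -0.56 against -0.09. With spike-in scaling, of all 12058 genes 6222 were lower and 89 higher with KI-CDK9d-32, and 9388 and 121 with KB-0742. On the spike-in scale no member was called higher in any of the 15 comparisons with DMSO, with or without the block. Few genes of any kind were: without the block, 2 to 150 of all genes tested were called higher there. Each rise below is thus a rise relative to the other genes of the library.

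**Figure D2:**
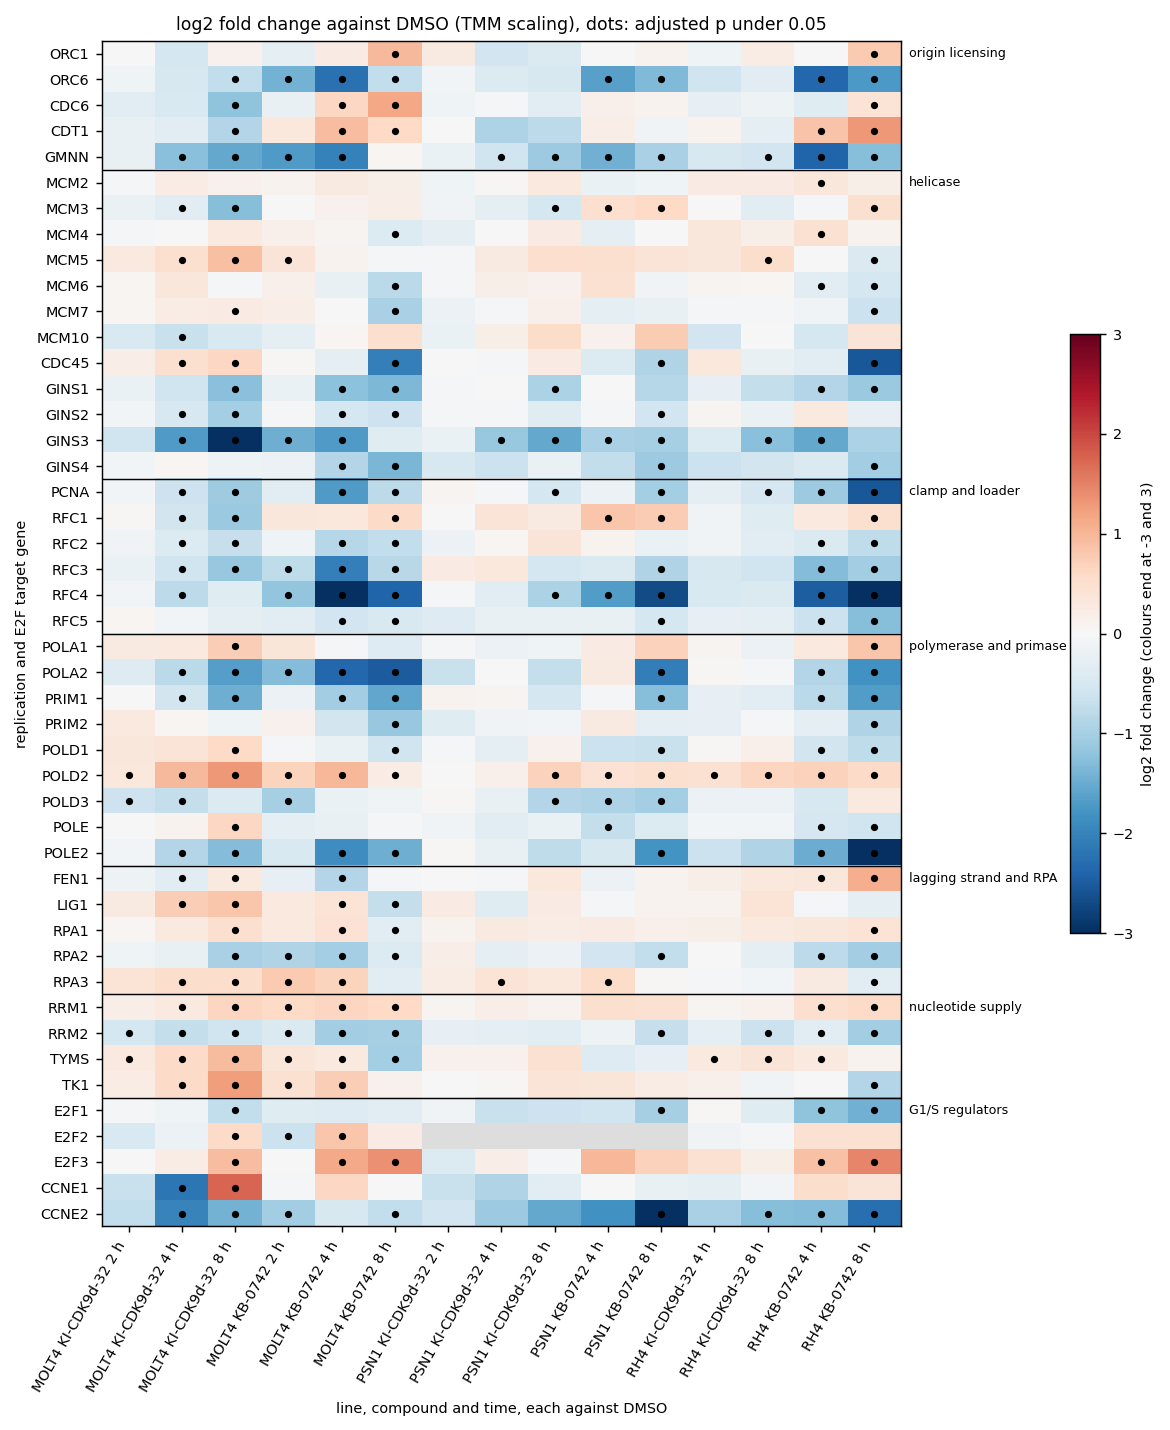
Heatmap of log2 fold changes against DMSO (TMM scaling) for the 46 genes in 15 comparisons, ordered by role. Dots mark adjusted p under 0.05, and grey marks E2F2, not tested in PSN1. The KB-0742 columns at 8 h hold 24, 19 and 25 called falls in MOLT4, PSN1 and RH4. No member was called higher on the spike-in scale, where 2 to 150 of all genes tested were in the 15 comparisons.

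Of the falls with KB-0742 at 8 h, 14 were common to the 3 lines, whose controls are separate: CCNE2, CDC45, GINS4, ORC6, PCNA, POLA2, POLD1, POLE2, PRIM1, RFC3, RFC4, RFC5, RPA2 and RRM2. They were among 45 members tested in each line, and of all 9338 genes tested in each line 7.35% were lower in all 3. Leaving out 1 library ended the call of CCNE2 and RFC5 in MOLT4 and of CDC45, POLD1, RFC3, RFC5 and RPA2 in PSN1 for at least 1 choice of the library. POLD2 and RFC1 were the 2 members raised in all 3 (10.3% of genes), with spike-in values below 0. With KI-CDK9d-32 at 8 h the common falls were GINS3, GMNN and PCNA (2.68% of genes), of which GINS3 and GMNN lost the call in RH4 for some choices of 1 library left out. POLD2 was the common rise (5.31% of genes), again below 0 on the spike-in scale. The 2 compounds share their DMSO libraries within a line, so their lists are given side by side and not compared by overlap.

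Members were next counted by role, and whether any role differed from all genes was not tested. The background at 8 h with KB-0742 was 25.8%, 15.1% and 22.9% of all genes lower (order MOLT4, PSN1, RH4). Those higher were 23.4%, 15.1% and 22.5%. For KI-CDK9d-32 the lower shares were 28.7%, 9.61% and 6.05% and the higher ones 20.8%, 11% and 9.19%. Origin licensing members moved in opposite directions. With KB-0742 at 8 h, 1 of 5 fell and 3 rose in MOLT4, 2 fell and 0 rose in PSN1, and 2 fell and 3 rose in RH4. With KI-CDK9d-32, 4, 1 and 1 fell and 0 rose in MOLT4, PSN1 and RH4. CDC6, which loads the MCM ring with CDT1, had 65.7, 80.1, 64.5 and 66.7 CPM (counts scaled by library size with TMM factors) with DMSO in MOLT4 at 8 h. It had 151, 149, 168 and 146 CPM with KB-0742, all above DMSO, and 16.4, 56.1, 20.3 and 24.0 with KI-CDK9d-32, all below it. The log2 fold changes were 1.15 ± 0.18 (SE; adjusted p = 5.8e-07; -0.17 on the spike-in scale) and -1.22 ± 0.21 (adjusted p = 3.7e-06). On the TMM scale the compounds thus moved CDC6 to opposite sides of the vehicle level in MOLT4. On the spike-in scale its value was negative with KB-0742 also. ORC1, a subunit of the origin recognition complex, rose with KB-0742 in MOLT4 (0.97 ± 0.20; spike-in -0.36) and RH4 (0.78 ± 0.17; spike-in -0.77).

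GMNN encodes geminin, which holds CDT1 inactive after origins have fired. In PSN1 at 8 h it had 63.6, 57.2, 47.0 and 50.9 CPM with DMSO, 28.3, 27.5, 23.1 and 22.4 with KI-CDK9d-32, and 28.5, 30.8, 27.1 and 24.6 with KB-0742. Both treated groups lay below every DMSO library, with log2 fold changes of -1.10 ± 0.18 and -0.97 ± 0.18 (adjusted p = 1.7e-05 and 5.4e-05). In MOLT4 it had 132, 149, 139.9 and 126 CPM with DMSO and 59.6, 40.9, 43.4 and 43.9 with KI-CDK9d-32 (-1.54 ± 0.22, adjusted p = 2.7e-07). With KB-0742 it had 87.2, 79.1, 227 and 176 CPM: 2 libraries lay below the DMSO range and 2 above it, and no change was called (0.07 ± 0.19, adjusted p = 0.80). In RH4 it had 44.8, 47.8, 42.7 and 35.7 CPM with DMSO and 14.9, 16.6, 16.5 and 23.2 with KB-0742 (-1.28 ± 0.23), with no overlap. KI-CDK9d-32 gave 18.4, 30.5, 38.5 and 27.1 CPM there, 1 library within the DMSO range, and -0.57 ± 0.20 (adjusted p = 0.049). That call was lost without any of DMSO replicates 1, 2 and 3 or KI-CDK9d-32 replicates 1, 2 and 4 (adjusted p from 0.0709 to 0.20).

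ORC6, the smallest subunit of the origin recognition complex, fell with KB-0742 in each line at 8 h, by -0.75 ± 0.19 in MOLT4, -1.33 ± 0.20 in PSN1 and -1.73 ± 0.27 in RH4. In PSN1 its 4 DMSO libraries had 42.1, 47.5, 36.1 and 29.4 CPM and its KB-0742 libraries 14.2, 16.4, 18.9 and 11.5, with no overlap. With KI-CDK9d-32 it had 30.4, 21.2, 32.2 and 27.4 CPM, overlapping DMSO, and no call (-0.48 ± 0.19, adjusted p = 0.066).

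**Figure D3:**
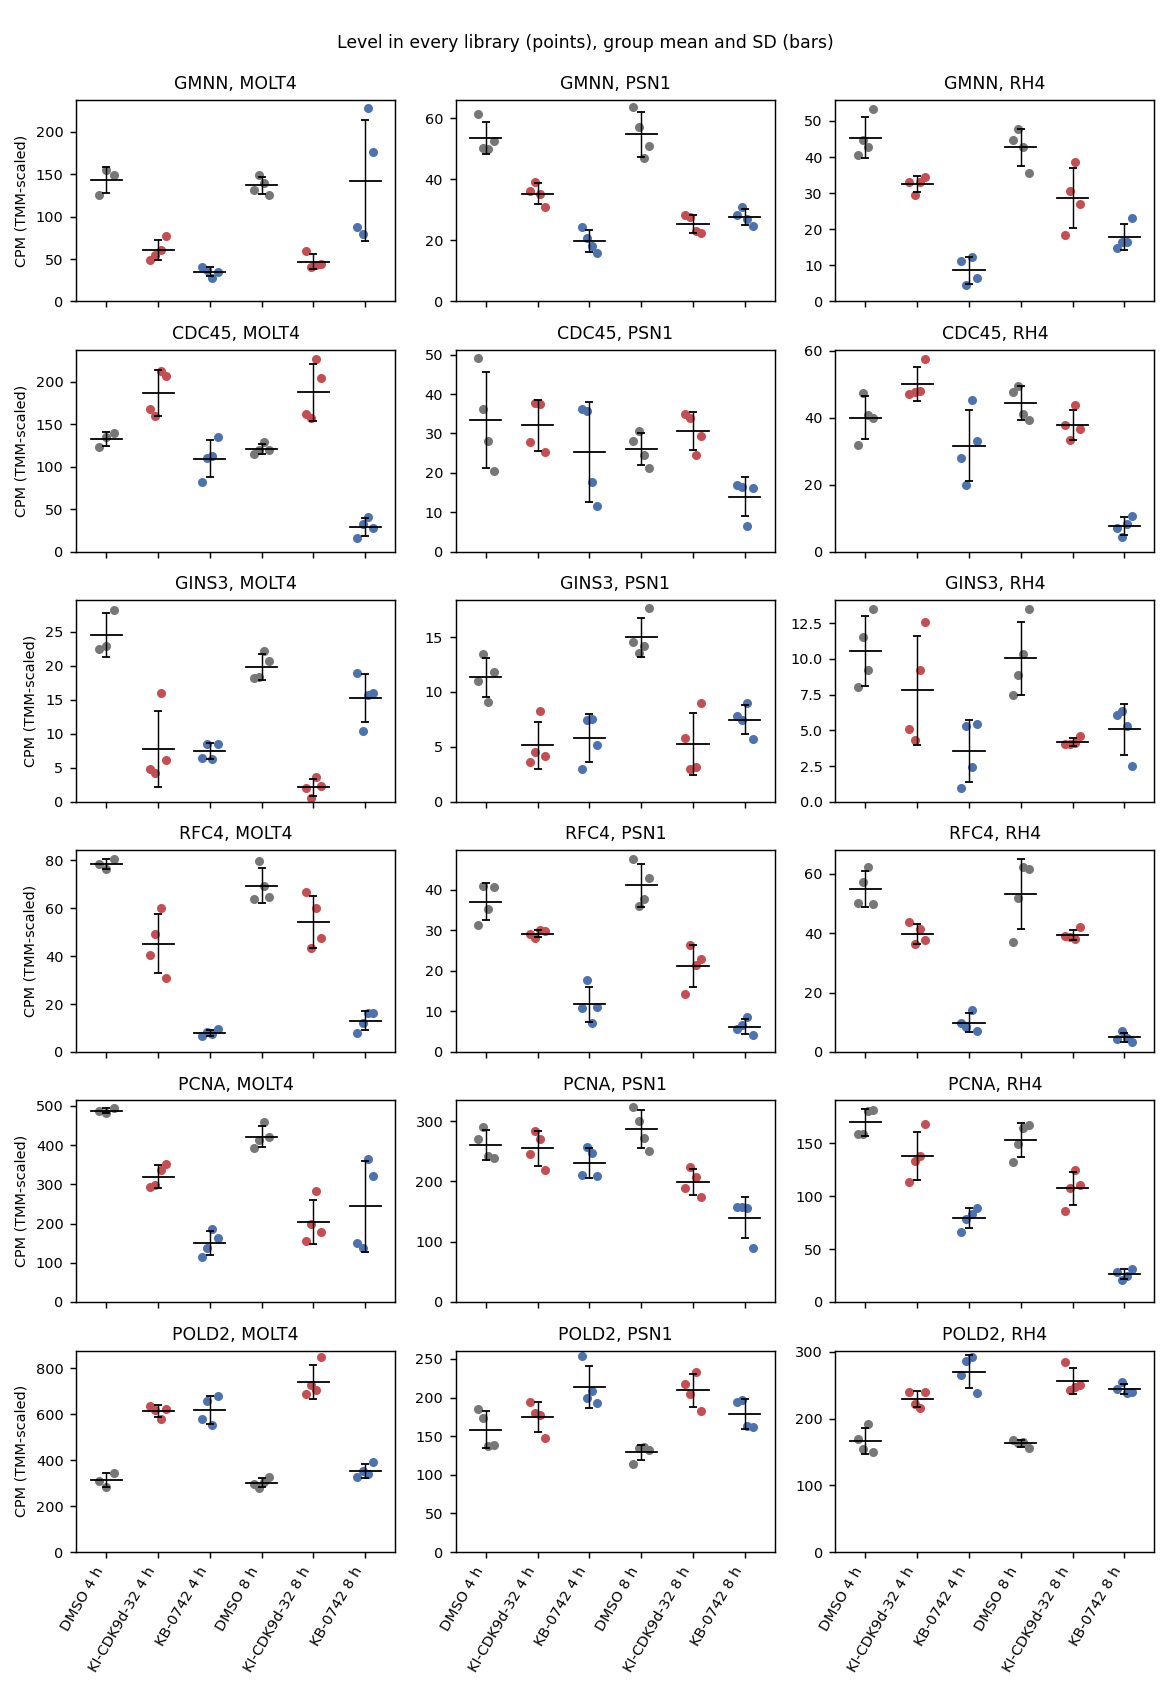
CPM (TMM-scaled) of GMNN, CDC45, GINS3, RFC4, PCNA and POLD2 in each library at 4 and 8 h, by line. Points are libraries, bars the mean with SD. RFC4 with KB-0742 lies below every DMSO library of its line at both times, and POLD2 lies above them with KI-CDK9d-32 at 8 h on this scale, with spike-in values below 0.

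Of the 12 helicase members, KB-0742 at 8 h lowered 7 and raised 0 in MOLT4, lowered 4 and raised 1 in PSN1, and lowered 6 and raised 1 in RH4. KI-CDK9d-32 lowered 4 and raised 3, lowered 3 and raised 0, and lowered 1 and raised 1. The subunits of the MCM ring did not move as a unit. MCM7 fell with KB-0742 in MOLT4 (-0.98 ± 0.09) and RH4 (-0.65 ± 0.09), and so did MCM6 (-0.81 ± 0.14 and -0.53 ± 0.12). MCM3 rose with KB-0742 in PSN1 (0.60 ± 0.17; spike-in -0.27) and RH4 (0.49 ± 0.13; spike-in -1.11). MCM5 rose with KI-CDK9d-32 in MOLT4 (0.90 ± 0.13; spike-in -1.91) and RH4 (0.53 ± 0.12; spike-in -0.37). MCM2 was called in none of the 6 comparisons at 8 h, with values from -0.13 to 0.29.

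In MOLT4 at 8 h MCM3 had 316, 276, 281 and 326 CPM with DMSO and 113, 113, 101 and 161 with KI-CDK9d-32. The degrader libraries lay below every DMSO library, and the fold change was -1.29 ± 0.11. KB-0742 gave 304, 343, 357 and 366 CPM, overlapping DMSO (0.19 ± 0.10, not called).

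CDC45 joins MCM and GINS to form the active helicase. On the TMM scale it lay on opposite sides of the vehicle with the 2 compounds in MOLT4. It had 115, 119, 129 and 119.8 CPM with DMSO at 8 h, 163, 157, 227 and 204 with KI-CDK9d-32, and 15.8, 32.5, 40.5 and 28.1 with KB-0742. The 3 groups did not overlap, and the log2 fold changes were 0.63 ± 0.15 with KI-CDK9d-32 (adjusted p = 0.00049; -2.22 on the spike-in scale) and -2.05 ± 0.17 with KB-0742 (adjusted p = 5.9e-14). In RH4 it had 47.7, 49.5, 41.0 and 39.3 CPM with DMSO, 7.20, 4.46, 8.25 and 10.8 with KB-0742 (-2.55 ± 0.24) and 37.8, 33.2, 43.9 and 36.7 with KI-CDK9d-32 (-0.23 ± 0.19, not called). In PSN1 KB-0742 lowered it from 28.0, 30.5, 24.6 and 21.2 CPM to 16.8, 16.4, 6.45 and 16.2 (-0.89 ± 0.30, adjusted p = 0.022). The PSN1 call was lost without DMSO replicate 2 or KB-0742 replicate 3 (adjusted p up to 0.103).

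GINS3, a subunit of the GINS complex, had the largest fall of any member with KI-CDK9d-32 in MOLT4 at 8 h. It had 18.3, 18.4, 22.2 and 20.7 CPM with DMSO and 1.97, 0.610, 3.69 and 2.34 with KI-CDK9d-32, where 12 counts were seen in the 4 libraries together. The log2 fold change was -3.26 ± 0.39. KB-0742 gave 19.0, 10.5, 15.7 and 16.0 CPM, overlapping DMSO (-0.37 ± 0.27, not called). In PSN1 GINS3 went from 14.6, 13.6, 14.2 and 17.6 CPM to 5.82, 2.97, 3.17 and 8.97 with KI-CDK9d-32, all below DMSO (-1.54 ± 0.35). In RH4 it went from 7.46, 8.87, 10.3 and 13.5 to 4.05, 4.03, 4.10 and 4.63, again without overlap (-1.25 ± 0.39). The RH4 call was lost without DMSO replicate 4 or any of KI-CDK9d-32 replicates 1, 2 and 3 (adjusted p from 0.0537 to 0.0909). GINS4, of the same complex, fell with KB-0742 in MOLT4, PSN1 and RH4 (-1.37 ± 0.22, -1.09 ± 0.32 and -1.04 ± 0.25) and was not called with KI-CDK9d-32.

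Most of the 6 members of the clamp and its loader fell with KB-0742. At 8 h 5 fell and 1 rose in MOLT4, 4 fell and 1 rose in PSN1, and 5 fell and 1 rose in RH4. With KI-CDK9d-32, 4, 2 and 1 fell and 0 rose. RFC4, a small subunit of the clamp loader, had 64.0, 79.8, 69.4 and 64.7 CPM with DMSO in MOLT4 and 7.68, 12.0, 16.2 and 16.3 with KB-0742, a log2 fold change of -2.40 ± 0.19. In PSN1 it went from 47.5, 36.0, 37.6 and 42.9 CPM to 5.61, 6.58, 8.60 and 4.18 (-2.69 ± 0.25). In RH4 it went from 37.0, 51.8, 62.2 and 61.5 CPM to 4.43, 7.01, 4.71 and 3.32 (-3.42 ± 0.25). In each line every KB-0742 library lay below every DMSO library.

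On the TMM scale the degrader did less to RFC4. With spike-in scaling the difference between the compounds was called in PSN1 and RH4 and not in MOLT4. KI-CDK9d-32 gave 66.8, 43.3, 59.95 and 47.4 CPM in MOLT4 (-0.36 ± 0.17, adjusted p = 0.075) and 39.1, 38.6, 38.1 and 42.0 in RH4 (-0.43 ± 0.18, adjusted p = 0.096), both overlapping DMSO. In PSN1 it gave 14.1, 26.4, 21.3 and 22.9 CPM, below DMSO (-0.95 ± 0.22, adjusted p = 0.0012). RFC1, the large subunit of the same loader, went the other way with KB-0742 in PSN1, from 18.0, 22.9, 20.7 and 15.4 CPM to 38.8, 38.2, 25.8 and 26.2, all above DMSO. Its log2 fold change was 0.75 ± 0.23 there (adjusted p = 0.011; spike-in -0.11) and 0.56 ± 0.17 in MOLT4 (adjusted p = 0.0044; spike-in -0.76). In RH4 it was 0.49 ± 0.20 (adjusted p = 0.044; spike-in -1.08), a call lost without DMSO replicate 1 or 3 or KB-0742 replicate 2, 3 or 4. KI-CDK9d-32 lowered RFC1 in MOLT4, from 38.4, 40.5, 43.0 and 40.5 CPM to 20.3, 20.7, 15.7 and 17.5 (-1.11 ± 0.20).

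PCNA, the sliding clamp, fell with both compounds in each line. In RH4 it had 132, 149.6, 164 and 167 CPM with DMSO, 85.9, 108, 124 and 111 with KI-CDK9d-32 and 28.2, 21.0, 24.2 and 31.5 with KB-0742. The 3 groups did not overlap, at -0.51 ± 0.13 and -2.55 ± 0.15. In PSN1 it went from 323, 300.5, 273 and 251 CPM to 189.6, 224, 207 and 174 with KI-CDK9d-32 (-0.53 ± 0.14) and to 158, 157, 155 and 89.4 with KB-0742 (-1.03 ± 0.14). In MOLT4 the DMSO libraries had 394, 412, 458 and 421 CPM and the KI-CDK9d-32 libraries 155, 199, 282 and 179 (-1.06 ± 0.21). The KB-0742 libraries there divided as they did for GMNN, at 151, 138, 365 and 319.9 CPM, all below DMSO (-0.78 ± 0.20).

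Among polymerases and primase, KB-0742 at 8 h lowered 5 of 9 and raised 1 in MOLT4, lowered 5 and raised 1 in PSN1, and lowered 6 and raised 2 in RH4. KI-CDK9d-32 lowered 3, 1 and 0 and raised 4, 1 and 1. POLA2, the accessory subunit of the primase-bound polymerase alpha, had 38.1, 41.5, 38.1 and 35.3 CPM with DMSO in MOLT4. It had 11.1, 19.5, 6.46 and 9.94 with KI-CDK9d-32 (-1.66 ± 0.24) and 9.49, 4.71, 4.94 and 7.60 with KB-0742 (-2.49 ± 0.25), both below every DMSO library. It fell with KB-0742 also in PSN1 (-2.07 ± 0.45, 38 counts in the 4 libraries and 0 in 1 of them) and RH4 (-1.82 ± 0.30). PRIM1, the catalytic primase subunit, fell with KB-0742 by -1.57 ± 0.19, -1.28 ± 0.28 and -1.68 ± 0.19 in MOLT4, PSN1 and RH4, and with KI-CDK9d-32 in MOLT4 (-1.47 ± 0.20).

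POLE2, a subunit of the leading strand polymerase, had 9.76, 13.2, 11.8 and 13.8 CPM with DMSO in RH4 at 8 h and 1.11, 1.91, 1.18 and 1.66 with KB-0742, where 9 counts were seen in all. The groups did not overlap (-3.03 ± 0.44). POLD2, the second subunit of polymerase delta, was the member whose share rose most widely. It had 295, 279, 304 and 326 CPM with DMSO in MOLT4 and 686, 725, 704 and 848 with KI-CDK9d-32 (1.30 ± 0.09; spike-in -1.49). In PSN1 it went from 114, 134, 135 and 132 CPM to 217, 204, 233 and 183 (0.70 ± 0.12; spike-in -0.25), and in RH4 from 168, 163, 165 and 155 to 285, 242, 247 and 250.4 (0.65 ± 0.10; spike-in -0.24). Every KI-CDK9d-32 library lay above every DMSO library of its line on the CPM scale. With KB-0742 it rose in PSN1 (0.47 ± 0.12; spike-in -0.41) and RH4 (0.59 ± 0.10; spike-in -0.997). In MOLT4 KB-0742 gave 0.23 ± 0.09 (spike-in -1.09), called with all libraries and not without DMSO replicate 1 or 2 or KB-0742 replicate 4 (adjusted p up to 0.0975).

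Of the 5 lagging strand and single-stranded DNA proteins, KB-0742 at 8 h lowered 3, 1 and 2 and raised 0, 0 and 2 in MOLT4, PSN1 and RH4, and KI-CDK9d-32 lowered 1, 0 and 0 and raised 4, 0 and 0. LIG1, the ligase that joins Okazaki fragments, had 82.3, 77.3, 82.4 and 98.1 CPM with DMSO in MOLT4, 133, 159, 136 and 173 with KI-CDK9d-32 and 50.1, 51.9, 40.9 and 63.5 with KB-0742. The groups did not overlap, at 0.82 ± 0.14 (spike-in -1.97) and -0.72 ± 0.14. RPA2, a subunit of the single-strand binding protein RPA, fell with KI-CDK9d-32 in MOLT4 (-0.98 ± 0.13) and with KB-0742 in RH4 (-1.05 ± 0.16). FEN1, the flap endonuclease, rose with KB-0742 in RH4 (1.10 ± 0.13; spike-in -0.47).

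Of the 4 nucleotide supply genes, KB-0742 at 8 h lowered 2, 1 and 2 and raised 1, 0 and 1 in the lines in that order, and KI-CDK9d-32 lowered 1, 0 and 1 and raised 3, 0 and 1. RRM2, the small subunit of ribonucleotide reductase, had 348, 395, 336 and 375 CPM with DMSO in MOLT4, 213, 253, 233 and 255 with KI-CDK9d-32 (-0.61 ± 0.10) and 160.4, 149.8, 204 and 211 with KB-0742 (-1.0006 ± 0.10), all below DMSO. It fell with KB-0742 in PSN1 (-0.69 ± 0.15) and RH4 (-1.04 ± 0.12) and with KI-CDK9d-32 in RH4 (-0.65 ± 0.12). RRM1, its large subunit, rose with KI-CDK9d-32 (0.64 ± 0.11; spike-in -2.16) and KB-0742 (0.60 ± 0.10; spike-in -0.71) in MOLT4 and with KB-0742 in RH4 (0.57 ± 0.14; spike-in -1.01). TYMS, which makes thymidylate, had 305, 294, 352 and 366 CPM with DMSO in MOLT4, 596, 585, 594 and 753 with KI-CDK9d-32 and 140.5, 156, 181 and 169 with KB-0742. The 3 groups did not overlap, at 0.94 ± 0.10 (spike-in -1.85) and -1.03 ± 0.10. TK1, thymidine kinase, rose with KI-CDK9d-32 in MOLT4 (1.25 ± 0.14; spike-in -1.57) and fell with KB-0742 in RH4 (-0.88 ± 0.11).

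The G1/S regulators were low in counts. CCNE2, a cyclin E, had 4.21, 6.78, 3.55 and 6.05 CPM with DMSO in PSN1 at 8 h and 0.431, 0.00, 1.29 and 0.00 with KB-0742, 4 counts in all, with no overlap (-3.41 ± 0.79). In RH4 it had 13.5, 10.6, 11.5 and 11.2 CPM with DMSO and 0.554, 8.29, 0.00 and 0.8288 with KB-0742 (15 counts; -2.26 ± 0.53, and -4.63 without KB-0742 replicate 2). KI-CDK9d-32 gave 6.30, 5.04, 4.10 and 3.92 CPM in RH4 (-1.27 ± 0.45, adjusted p = 0.049). That call was lost on leaving out any 1 of the 8 libraries (adjusted p from 0.0595 to 0.124).

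CCNE1, the other cyclin E, had 2.72, 4.05, 1.76 and 4.21 CPM with DMSO in MOLT4 at 8 h and 9.83, 15.3, 11.1 and 7.02 with KI-CDK9d-32, all above DMSO (1.74 ± 0.46; spike-in -1.12). E2F3, an activating E2F, rose with KB-0742 in MOLT4, from 13.6, 10.9, 8.81 and 12.9 CPM to 30.3, 37.7, 17.1 and 35.3 (1.37 ± 0.28; 0.05 and not called on the spike-in scale). In RH4 it went from 8.33, 4.00, 10.0 and 10.1 to 16.1, 25.5, 24.2 and 24.9 (1.47 ± 0.30; spike-in -0.10). Neither pair of groups overlapped. E2F1 fell in RH4 with KB-0742 (-1.44 ± 0.26).

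Other genes of the pathway, 48 by list with 46 tested in each line, were counted in the same way. At 8 h KI-CDK9d-32 lowered 12 and raised 14 in MOLT4, lowered 8 and raised 1 in PSN1, and lowered 3 and raised 3 in RH4. Of all genes, 28.7% and 20.8%, 9.61% and 11%, and 6.05% and 9.19% were called, in the same order. KB-0742 lowered 16 and raised 9, lowered 8 and raised 5, and lowered 13 and raised 8. The shares of all genes were 25.8% and 23.4%, 15.1% and 15.1%, and 22.9% and 22.5%. With spike-in scaling 45, 29 and 26 were lower with KI-CDK9d-32 and 29, 26 and 41 with KB-0742, and 0 were higher. Of all 11664, 12471 and 12058 genes tested, 10609, 6382 and 6222 were lower with KI-CDK9d-32 and 6332, 5834 and 9388 with KB-0742. CDC7, the kinase that starts the loaded helicase, was among the 2 largest falls with KB-0742 in each line (-1.94 in MOLT4, -2.25 in PSN1, -1.54 in RH4). TICRR, which brings CDC45 to origins, was among the 2 largest rises (1.88, 1.74 and 1.91 on the TMM scale). With KI-CDK9d-32, ORC5, another subunit of the origin recognition complex, was among the 2 largest falls (-1.49, -1.56 and -0.92).

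The compounds were then compared directly, KI-CDK9d-32 against KB-0742 at the same time in the same line. At 8 h in MOLT4, 9 members were lower and 21 higher with KI-CDK9d-32, where 29.6% and 28.9% of all genes were. The median was 0.19 against 0.04 over all genes. With spike-in scaling the split turned to 27 lower and 1 higher, and the member medians to -1.37 against -1.46. In RH4, 9 were lower and 22 higher (19.3% and 19.1%), or 0 and 31 with spike-in scaling, with a median of 0.42 against 0.03. In PSN1, 1 was lower and 8 higher (12.8% and 12%), or 1 and 1 with spike-in scaling and 2 and 3 with the block as well. The PSN1 count of higher members was 5 without KB-0742 replicate 4 or KI-CDK9d-32 replicate 2, and 4 without KI-CDK9d-32 replicate 1. There the lower count was 3 with the replicate block alone and 2 without KB-0742 replicate 4 or KI-CDK9d-32 replicate 2.

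On the TMM scale CDC45 and RFC4 were higher with the degrader in all 3 lines, whereas on the spike-in scale CDC45 was called in MOLT4 and RH4 and RFC4 in PSN1 and RH4. CDC45 differed by 2.68 ± 0.17 in MOLT4 (adjusted p = 9.9e-18; spike-in 1.11), 1.14 ± 0.30 in PSN1 (adjusted p = 0.0044; spike-in 1.07) and 2.32 ± 0.25 in RH4 (adjusted p = 8.5e-10; spike-in 3.02). RFC4 differed by 2.03 ± 0.20, 1.74 ± 0.26 and 2.99 ± 0.25 (spike-in 0.45, 1.66 and 3.68). MCM3 was lower with the degrader in all 3 lines, by -1.48 ± 0.11, -1.14 ± 0.18 and -0.82 ± 0.13 (spike-in -2.92, -1.20 and -0.11, the last not called). The licensing genes did not share a direction across lines: GMNN was lower with the degrader in MOLT4 (-1.60 ± 0.22) and higher in RH4 (0.71 ± 0.23, a call lost without KI-CDK9d-32 replicate 3), and ORC6 was higher in PSN1 (0.85 ± 0.20; not called on the spike-in scale) and RH4 (1.42 ± 0.28). CDC6 was lower with the degrader in MOLT4 (-2.36 ± 0.20; spike-in -3.79) and in RH4 (-0.56 ± 0.16; 0.17 on the spike-in scale).

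**Figure D4:**
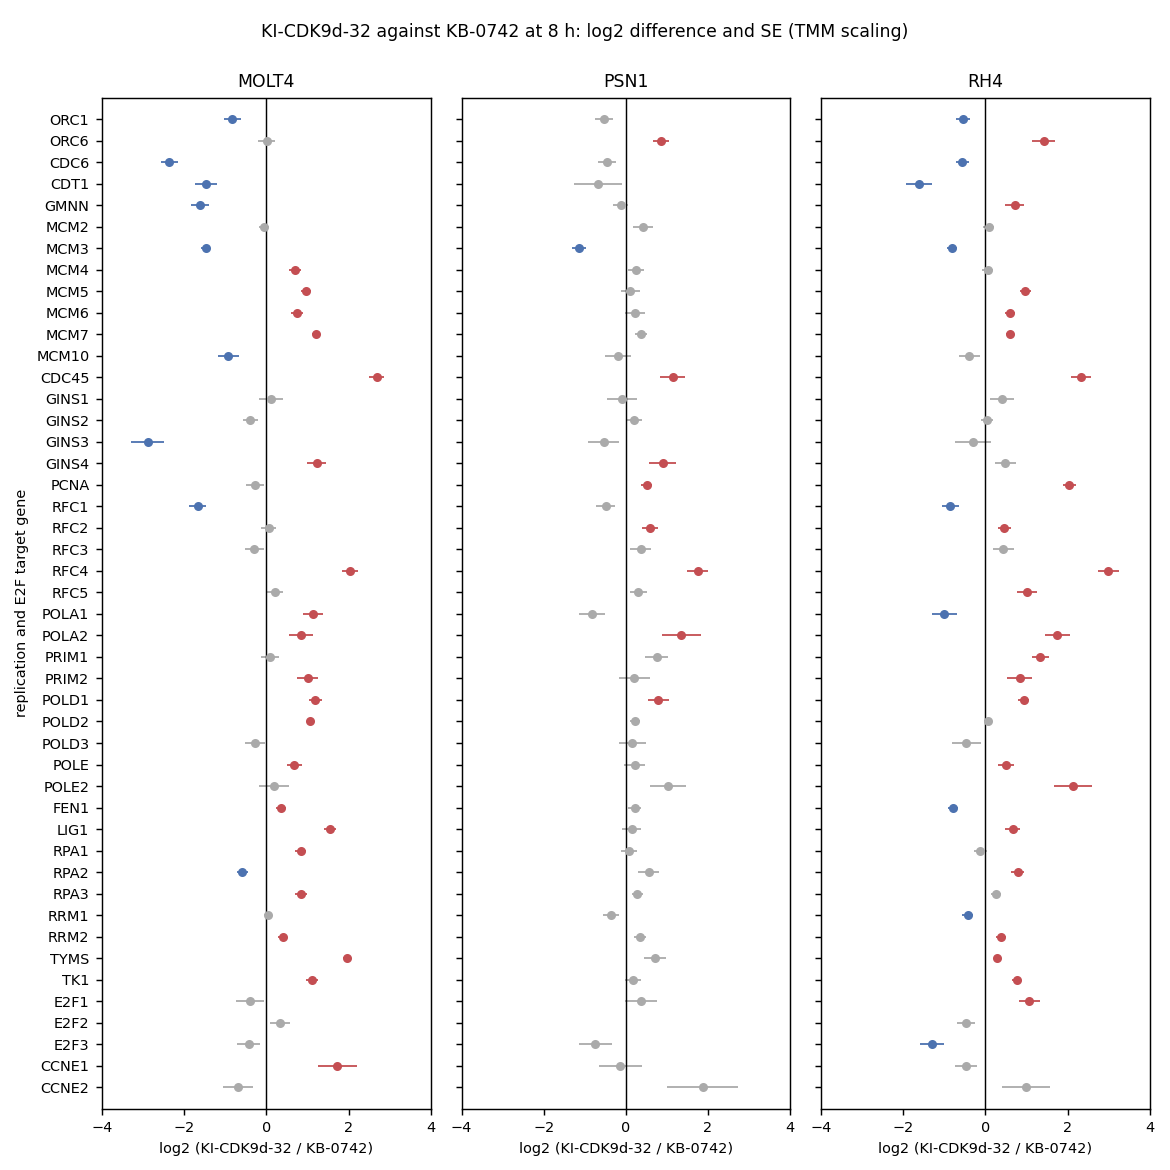
Log2 difference of KI-CDK9d-32 from KB-0742 at 8 h for each member (TMM scaling, bars are SE), by line. Red marks members called higher with KI-CDK9d-32 (21, 8 and 22 in MOLT4, PSN1 and RH4), blue those called lower (9, 1 and 9) and grey those not called. With spike-in scaling the counts were 1, 1 and 31 higher and 27, 1 and 0 lower. No share of all genes is given beside these spike-in counts.

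Fewer members had fallen with KB-0742 at 4 h than at 8 h in each line, and TYMS in MOLT4 was called higher at 4 h (0.28 ± 0.10; spike-in -1.03) before its fall at 8 h. At 2 h in MOLT4 KB-0742 lowered 11 members and raised 6 (12.9% and 13.2% of all genes; 11 and 0 with spike-in scaling, or 25 and 0 with the block as well), and KI-CDK9d-32 lowered 2 and raised 2 (5.41% and 4.57%; 0 and 0). With spike-in scaling, of all 11664 genes 2282 were lower and 14 higher with KB-0742, and 193 and 20 with KI-CDK9d-32. With the replicate block alone KI-CDK9d-32 raised 5. The KI-CDK9d-32 counts dropped to 1 lower without any of DMSO replicates 1, 2 and 3 or KI-CDK9d-32 replicates 1, 2 and 4. They dropped to 0 higher without DMSO replicate 2 or KI-CDK9d-32 replicate 2, and to 1 without DMSO replicate 1 or KI-CDK9d-32 replicate 3. In PSN1 KI-CDK9d-32 at 2 h changed 0 members by edgeR and 0 by DESeq2, and 0 had an unadjusted p under 0.05 (0.353% and 0.128% of all genes were called). Of all 12471 genes, 1033 had such a p. Directly compared at 2 h in MOLT4, 3 members were lower and 7 higher with KI-CDK9d-32 (10.1% and 8.2%; 0 and 3 with spike-in scaling, 0 and 6 with the block as well).

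At 4 h KB-0742 lowered 17 and raised 11 in MOLT4 (17.7% and 18.1%; 32 and 0 with spike-in scaling), lowered 6 and raised 4 in PSN1 (12.6% and 11.3%; 23 and 0), and lowered 19 and raised 8 in RH4 (16.3% and 15.4%; 38 and 0). KI-CDK9d-32 lowered 18 and raised 8 in MOLT4 (18.9% and 13.6%; 24 and 0), lowered 2 and raised 1 in PSN1 (3.74% and 3.62%; 6 and 0), and lowered 0 and raised 2 in RH4 (1.89% and 3.47%; 0 and 0). With spike-in scaling, of all 11664, 12471 and 12058 genes tested in MOLT4, PSN1 and RH4, 5893, 5269 and 7458 were lower with KB-0742. With KI-CDK9d-32, 4310, 1553 and 89 were lower. For members with KI-CDK9d-32, spike-in scaling with the replicate block gave 22 lower in PSN1 and 15 in RH4. The block alone gave 3 lower and 4 higher in RH4. In RH4 with KI-CDK9d-32 10 members had an unadjusted p under 0.05 and a value below 0, and DESeq2 also called 0 lower. Of all 12058 genes, 2311 had such a p in either direction. The 18 of MOLT4 became 11 without DMSO replicate 3 or KI-CDK9d-32 replicate 1 or 2. The KB-0742 count in PSN1 became 3 lower without DMSO replicate 1 or KB-0742 replicate 4, and that of RH4 5 higher without DMSO replicate 1 or 3 and 4 without KB-0742 replicate 3. The KI-CDK9d-32 counts in PSN1 became 0 lower without DMSO replicate 1 or KI-CDK9d-32 replicate 4. They became 0 higher without DMSO replicate 1, 2 or 4 or KI-CDK9d-32 replicate 2 or 3, and 1 lower without DMSO replicate 2 or 4 or KI-CDK9d-32 replicate 1, 2 or 3. The 2 higher in RH4 became 1 without DMSO replicate 1, 3 or 4 or KI-CDK9d-32 replicate 1, 3 or 4.

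GINS3, GMNN, ORC6 and RFC4 were lowered by KB-0742 at 4 h in all 3 lines, where 5.1% of the 9338 genes were lower in all 3. With KI-CDK9d-32 at 4 h 0 members were lower in all 3 and 0 higher, where 0.717% and 0.964% of genes were. RFC4 had 78.7, 76.5 and 80.5 CPM with DMSO in MOLT4 at 4 h and 6.50, 8.44, 7.66 and 9.36 with KB-0742. The same compound took it from 50.3, 57.3, 62.3 and 49.9 CPM to 9.85, 8.42, 14.2 and 6.93 in RH4 (-2.48 ± 0.21) and from 31.4, 40.9, 35.2 and 40.6 to 10.9, 17.6, 7.14 and 11.1 in PSN1 (-1.68 ± 0.23). No KB-0742 library overlapped DMSO in any of the 3. The GINS3 call in PSN1 was lost without DMSO replicate 1, 2 or 4 or KB-0742 replicate 1 or 4 (adjusted p up to 0.148). Directly compared at 4 h, 11 members were lower and 21 higher with KI-CDK9d-32 in MOLT4 (21.1% and 14.6%; 1 and 5 with spike-in scaling, 1 and 10 with the block as well), 1 and 4 in PSN1 (7.47% and 9.97%; 0 and 3, or 0 and 5), and 2 and 14 in RH4 (12.4% and 13.4%; 0 and 26). With the block alone the lower count was 3 in PSN1 and 5 in RH4. The PSN1 lower count became 2 without KB-0742 replicate 4. The RH4 lower count became 4 without KB-0742 replicate 1, and 1 without KB-0742 replicate 2 or KI-CDK9d-32 replicate 2.

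The change of each compound's effect from 4 to 8 h was tested as an interaction. With KB-0742 it differed for 17 members in MOLT4 (17.8% of all genes, either direction), 2 in PSN1 (1.88%) and 11 in RH4 (8.52%). With KI-CDK9d-32 it differed for 7 in MOLT4 (12.5%), 0 in PSN1 (0.016%) and 0 in RH4 (0%). In PSN1 6 members had an unadjusted p under 0.05 and DESeq2 called 1, and in RH4 2 had such a p and DESeq2 called 0. With spike-in scaling the counts were 0, 0 and 3 with KB-0742 and 31, 0 and 0 with KI-CDK9d-32, and with the block as well 0, 0 and 21 and 42, 0 and 7. On that scale the median gene in MOLT4 with KI-CDK9d-32 lay at -1.13 at 4 h and -2.99 at 8 h. The percentages above are of calls with TMM scaling. The PSN1 count with KB-0742 was 4 with the replicate block alone and became 1 without DMSO replicate 1, 2 or 4 at 4 h, DMSO replicate 2 or 4 at 8 h, or KB-0742 replicate 1, 2 or 4 at 4 h.

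The time at which KB-0742 lowered a member differed by gene. CDC45 fell between 4 and 8 h, by a further -1.78 ± 0.24 in MOLT4 (adjusted p = 3.3e-07) and -2.21 ± 0.32 in RH4 (adjusted p = 1.7e-05). At 4 h its libraries in MOLT4 had 124, 135 and 139.8 CPM with DMSO and 81.9, 109.7, 112 and 135 with KB-0742, and no change was called (-0.27 ± 0.16). TYMS lost -1.31 ± 0.14 in MOLT4. Relative to the other genes, GMNN and ORC6 regained level there, by 2.09 ± 0.30 and 1.498 ± 0.30. GMNN had 126, 155 and 149 CPM with DMSO at 4 h and 40.3, 37.4, 27.9 and 35.0 with KB-0742, and ORC6 50.7, 62.8 and 59.5 and 12.4, 18.5, 7.66 and 9.77. At 8 h GMNN with KB-0742 had 87.2, 79.1, 227 and 176 CPM, on both sides of its DMSO libraries. ORC6 had 28.5, 22.0, 46.7 and 36.1, all below its DMSO libraries. With spike-in scaling no member in MOLT4 was called for a change of the KB-0742 effect over time. PCNA fell further with KB-0742 in PSN1 (-0.86 ± 0.20) and RH4 (-1.46 ± 0.20).

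With KI-CDK9d-32 in MOLT4, CCNE1 crossed the vehicle level on the TMM scale. At 4 h it had 8.19, 3.91 and 2.99 CPM with DMSO and 1.11, 1.90, 0.5002 and 0.609 with KI-CDK9d-32, 10 counts in all, below every DMSO library (-2.16 ± 0.57, adjusted p = 0.0027). That call was lost without DMSO replicate 1 (adjusted p = 0.0532). By 8 h it lay above DMSO on that scale, and its spike-in value was negative. The change of the effect was 3.90 ± 0.74 (adjusted p = 0.000101). MCM3 lost a further -0.96 ± 0.15 over the same interval.

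**Figure D5:**
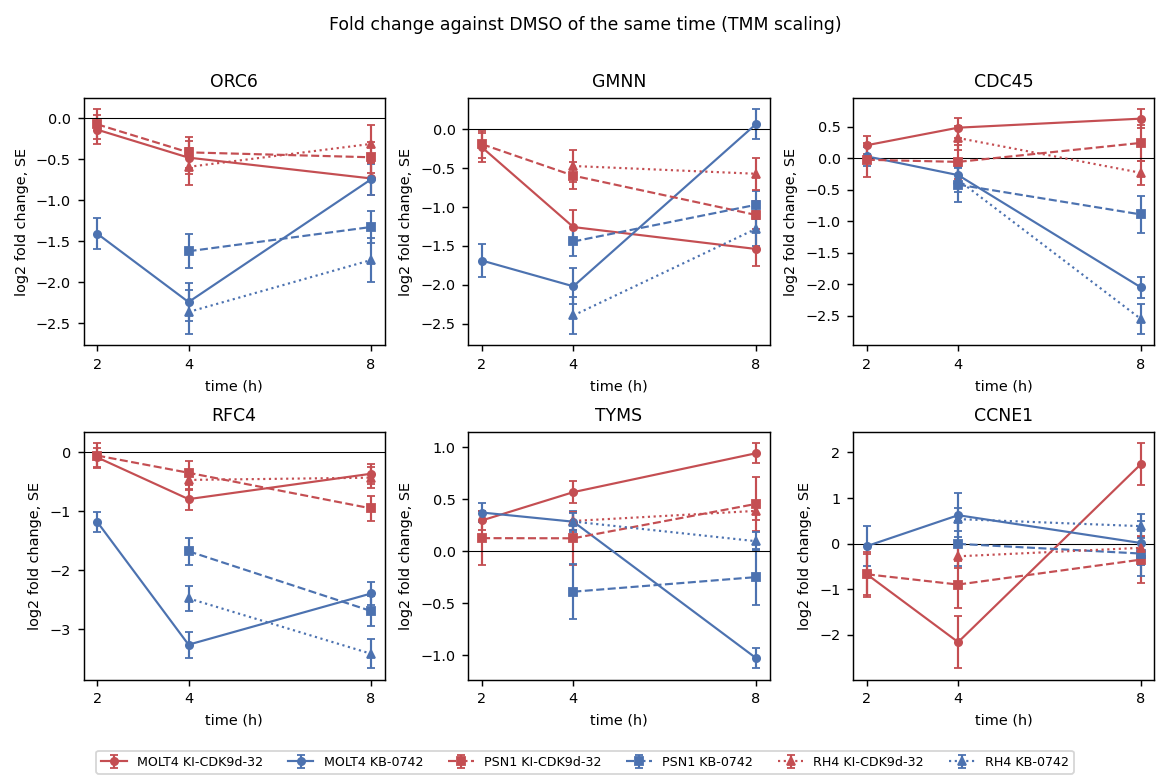
Log2 fold change against DMSO (TMM scaling, bars are SE) of ORC6, GMNN, CDC45, RFC4, TYMS and CCNE1 by time in h. Red is KI-CDK9d-32 and blue KB-0742, and solid, dashed and dotted lines are MOLT4, PSN1 and RH4. In MOLT4 with KB-0742, CDC45 went from -0.27 at 4 h to -2.05 at 8 h while GMNN went from -2.02 to 0.07.

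The lines were compared at 8 h in 1 fit of 36 libraries over 13843 genes. The effect of KI-CDK9d-32 differed between MOLT4 and PSN1 for 10 members (17.2% of all genes, either direction), between MOLT4 and RH4 for 11 (16.3%) and between PSN1 and RH4 for 0 (0.455%). In that last comparison 4 members had an unadjusted p under 0.05 and DESeq2 called 0. The effect of KB-0742 differed for 6 (11.2%), 7 (8.39%) and 5 (6.7%). With spike-in scaling the counts were 39, 40 and 0 with KI-CDK9d-32 and 0, 1 and 3 with KB-0742. On that scale the median gene with KI-CDK9d-32 lay at -2.99 in MOLT4, -1.01 in PSN1 and -0.92 in RH4. The percentages above are of calls with TMM scaling. With the replicate block alone the MOLT4 and PSN1 count for KB-0742 was 10. Without MOLT4 DMSO replicate 4 the MOLT4 and PSN1 counts were 6 for KI-CDK9d-32 and 3 for KB-0742, and without PSN1 DMSO replicate 3 that for KI-CDK9d-32 was 5.

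With KI-CDK9d-32, TK1 and POLD2 were higher against DMSO in MOLT4 than in the other lines on the TMM scale and lower on the spike-in scale. TK1 differed by 0.98 ± 0.24 from PSN1 and 1.49 ± 0.24 from RH4 (-1.01 and -0.57 on the spike-in scale), and POLD2 by 0.73 ± 0.15 and 0.78 ± 0.15 (spike-in -1.24 and -1.25). With KB-0742, PCNA fell less in MOLT4 and PSN1 than in RH4, by 1.71 ± 0.33 and 1.4995 ± 0.33 (adjusted p = 0.00060 and 0.0053; spike-in 2.11 and 2.30). CDC45 fell more in MOLT4 than in PSN1 (-1.19 ± 0.31; spike-in -1.54) and less in PSN1 than in RH4 (1.64 ± 0.36; spike-in 2.32). TYMS was lower against DMSO in MOLT4 than in either, where it was not called on the TMM scale (-0.81 ± 0.22 from PSN1 and -1.18 ± 0.20 from RH4; spike-in -1.19 and -0.87).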

How the data were processed

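RNA of 91 libraries was measured by reduced-volume SMART-seq2 with Nextera XT libraries, per the labels' protocols; the kit keeps no strand and no molecular identifiers, so overlapping genes cannot be told apart and reads are not independent molecules. The deposited tables hold expected counts estimated with Salmon against hg38, per the submitters' processing notes, here whole numbers, and log2 values of TPM + 1 made by the authors. Spike-in rows were kept out of library sizes.

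Groups came from the labels. Each line was fitted with all its groups in 1 model by edgeR 4.0.16 (R 4.3.3; TMM, filterByExpr with a minimum count of 10, robust quasi-likelihood F test, Benjamini-Hochberg adjusted p under 0.05 over all genes tested: 11664, 12471 and 12058 in MOLT4, PSN1 and RH4), and the lines at 8 h in a joint fit. All adjusted p-values are edgeR's unless DESeq2 is named, and the scripts were tested on simulated data. The 34 comparisons were 15 of a compound with DMSO, 7 between compounds, 6 between times and 6 between lines. Alternatives were DESeq2 1.42.0, spike-in scaling, no filter, a replicate block and leaving out each library, and, added after seeing the data, spike-in scaling with the replicate block for counts of members. The 46 members and the lists were chosen with earlier results of these data known. Per-library values were printed for the 2 called members with the largest fall and the 1 with the largest rise against DMSO at 8 h, and where a result turned on another member; other pathway genes were named among the 2 largest falls or rises. Promoter windows are RefSeq's.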

Additional observations from a re-analysis of the deposited data

Results flagged for a closer look

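In 5 of 44 checked groups of 4 libraries, 1 library stood apart from the other three by Dixon's criterion for 4 values, and chance flags about 1 in 20. They were POLD2 in PSN1 with DMSO at 8 h (replicate 1, 114 CPM), GINS3 in RH4 with KI-CDK9d-32 at 8 h (replicate 4, 4.63 CPM), E2F3 in RH4 with KB-0742 at 8 h (replicate 1, 16.1 CPM), and the spike-in share in MOLT4 with DMSO at 8 h (replicate 4, 11.7%) and in PSN1 with KB-0742 at 8 h (replicate 4, 22.4%).

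Effects that differed between lines at 8 h by the interaction test were listed next. For KI-CDK9d-32, MOLT4 and PSN1 differed for 10 members, CCNE1 (2.19), GINS3 (-1.59) and RFC1 (-1.25) by the most on the log2 scale. MOLT4 and RH4 differed for 11, with CCNE1 at 1.96, GINS3 at -1.88 and TK1 at 1.49. The calls of CCNE1 and GINS3 were lost on leaving out 1 library, in both pairs of lines, MOLT4 KI-CDK9d-32 replicate 2 among those libraries each time.

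For KB-0742, MOLT4 and PSN1 differed for 6 members, among them CCNE2 (2.62), CDC45 (-1.19) and GMNN (1.00). MOLT4 and RH4 differed for 7, among them PCNA (1.71), GMNN (1.29) and POLA1 (-1.27). PSN1 and RH4 differed for 5, among them CDC45 (1.64), PCNA (1.4995) and TK1 (1.08). Leaving out 1 library ended the calls of CCNE2, GMNN against PSN1, and POLA1. With spike-in scaling the 5 counts were 39, 40, 0, 1 and 3.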

How the results depend on the processing

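Of 121 single-gene results, 121 kept their direction and call with DESeq2, 107 without the filter on low counts (14 were no longer called), 121 with the replicate block and 77 with spike-in scaling (18 no longer called, 26 reversed). With each single-gene result counted once for each library left out, 1027 refits kept the direction and call. In 131 refits the call ended, and in none did the direction reverse. For results below, the cause was not tested. By construction, TMM scaling removes a difference in total RNA between libraries, and spike-in scaling keeps it. Low counts limit CCNE1, CCNE2, GINS3 and POLE2.

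With DESeq2, KI-CDK9d-32 changed between 4 and 8 h for 11 members in MOLT4 (7 with edgeR) and 1 in PSN1 (0), and 2 members (1) were lower than with KB-0742 in PSN1 at 4 h and at 8 h. Without the filter KI-CDK9d-32 lowered 1 and raised 1 at 2 h in MOLT4, lowered 9 at 4 h in MOLT4, lowered 0 and raised 0 at 4 h in PSN1, and raised 1 at 4 h in RH4. KB-0742 then raised 3 at 4 h and 7 at 8 h in RH4, and 1 member was lower with KI-CDK9d-32 than with KB-0742 at 2 h in MOLT4 and 1 at 4 h in RH4.

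By gene levels the replicate numbers did not meet the rule for pairing, a correlation of same-numbered deviations over 0.1 in every pair: correlations ran from -0.019 to 0.078 in MOLT4, 0.035 to 0.169 in PSN1 and 0.017 to 0.123 in RH4. The spike-in share did follow the number, in RH4 above all (replicate 1 highest in 6 of 6 groups, replicate 3 lowest in 6 of 6). With the replicate block KI-CDK9d-32 raised 5 at 2 h in MOLT4 and 2 at 8 h in PSN1, and in RH4 lowered 3 and raised 4 at 4 h and lowered 10 at 8 h. In that block 3 members were lower than with KB-0742 at 4 h and 3 at 8 h in PSN1 and 5 at 4 h in RH4, KB-0742 changed over time for 4 in PSN1, and MOLT4 and PSN1 differed with KB-0742 for 10.

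With spike-in scaling KI-CDK9d-32 lowered 0 at 2 h and 45 at 8 h in MOLT4, 6 and 26 at 4 and 8 h in PSN1, and 37 at 8 h in RH4. KB-0742 lowered 32 members of MOLT4 at 4 h and 37 at 8 h, 23 and 29 of PSN1, and 38 and 42 of RH4, and neither compound raised any (0). Compared directly, KI-CDK9d-32 gave 0 lower and 3 higher at 2 h, 1 and 5 at 4 h, and 27 and 1 at 8 h in MOLT4, 0 lower at 4 h and 1 higher at 8 h in PSN1, and 0 and 26 at 4 h and 0 lower at 8 h in RH4. Effects changed over time for 31 (KI-CDK9d-32) and 0 (KB-0742) in MOLT4, 0 in PSN1 and 3 in RH4 (KB-0742). Lines differed for 39 and 40 (KI-CDK9d-32, MOLT4 less PSN1 and less RH4) and for 0, 1 and 3 (KB-0742).

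Spike-in scaling with the replicate block was added after seeing the data. It gave, against DMSO with KI-CDK9d-32, 0, 31 and 45 lower at 2, 4 and 8 h in MOLT4, 22 and 41 at 4 and 8 h in PSN1, and 15 and 45 in RH4. With KB-0742 it gave 25, 38 and 39 members of MOLT4, 30 and 40 of PSN1 and 43 and 44 of RH4, and 0 were higher with either compound. Between compounds it gave 0 lower at 2 h, 1 lower and 10 higher at 4 h, and 32 lower and 1 higher at 8 h in MOLT4. In PSN1 it gave 0 lower at 4 h and 2 lower and 3 higher at 8 h, and in RH4 0 lower and 36 higher at 4 h and 1 lower at 8 h. Over time it gave 42 (KI-CDK9d-32) and 0 (KB-0742) in MOLT4, 0 (KB-0742) in PSN1, and 7 and 21 in RH4. Between lines it gave 40 and 43 with KI-CDK9d-32 (MOLT4 less PSN1 and less RH4) and 1 and 1 with KB-0742.

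Values that reversed with spike-in scaling were, for KI-CDK9d-32 in MOLT4, POLD2 at -0.11, -0.017 and -1.49 (2, 4 and 8 h), TYMS at -0.10 (2 h), LIG1 at -0.19 (4 h) and CCNE1 at -1.12 (8 h). For KB-0742 in MOLT4 they were RPA3 at -0.018 and POLD2 at -0.14 (2 h), E2F3 at -0.31 and POLD2 at -0.31 (4 h) and CDC6 at -0.17 (8 h). In PSN1 they were RPA3 at -0.15 (4 h) and POLD2 at -0.25 (8 h) for KI-CDK9d-32, and RFC1 at -0.089 (4 h) and -0.11 (8 h), RPA3 at -0.25 (4 h) and MCM3 at -0.27 (8 h) for KB-0742. In RH4 they were TYMS at -0.062 (4 h), POLD2 at -0.24 and MCM5 at -0.37 (8 h) for KI-CDK9d-32, and E2F3 at -0.10 and -0.10 and CDT1 at -0.12 and -0.23 (4 and 8 h) for KB-0742. Between MOLT4 and RH4 with KI-CDK9d-32, CCNE1 was at -0.22 and TK1 at -0.57.

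Leaving out 1 library gave, for KI-CDK9d-32 against DMSO, 1 to 2 lower and 0 to 2 higher at 2 h and 11 to 16 lower at 4 h in MOLT4, 0 to 2 lower and 0 to 1 higher at 4 h and 4 to 10 lower and 1 to 2 higher at 8 h in PSN1, and 1 to 2 higher at 4 h and 3 to 4 lower at 8 h in RH4. For KB-0742 it gave 3 to 8 lower at 4 h and 3 to 5 higher at 8 h in PSN1 and 4 to 7 higher at 4 h in RH4. Between compounds it gave 1 to 2 lower at 4 h and at 8 h and 4 to 11 higher at 8 h in PSN1, and 1 to 4 lower at 4 h in RH4. Over time with KB-0742 it gave 1 to 3 in PSN1, and between MOLT4 and PSN1 5 to 10 with KI-CDK9d-32 and 3 to 8 with KB-0742.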
